A study of Sus scrofa with 6 samples.

Results

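RNA-seq values of 10 genes for elastic fibre and matrix glycoproteins were compared between porcine embryonic fibroblasts (PEFs) and the porcine induced pluripotent stem cells (piPSCs) made from them. The genes are FBN1, FBN2, ELN, FN1, TNC, SPARC, THBS1, THBS2, POSTN and FBLN1. They were taken by gene name from a table of 18007 genes, and 10 of 10 were found. PEF5, PEF7 and PEF8 were grown from the ear tips of embryos at embryonic day 90, sired by a Longwhite boar (Large White in the study's methods) and carried by a Meishan sow. piPSC5, piPSC7 and piPSC8 each came from the equally numbered PEFs, which were infected with lentiviruses carrying dox-inducible Oct4, Sox2, Klf4 and cMyc (OSKM) and the M2rtTA activator. The labels class the PEFs as somatic and the piPSCs as pluripotent cells. Colonies were picked in LF2i medium and expanded on feeders of mouse embryonic fibroblasts. Medium, feeders and exogenous factors thus differ between the groups together with reprogramming and cannot be told apart from it. Each line was sequenced as 1 library, so the 3 lines of a group are the replicates and no line has a replicate of its own.

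Elastic fibres are built from a core of cross-linked elastin on a scaffold of fibrillin microfibrils, and fibrillins also hold latent transforming growth factor beta (TGF-beta) complexes in the matrix. Fibronectin forms the first fibrillar matrix that many other proteins bind, and integrins on the cell surface assemble it. Tenascin-C, SPARC, thrombospondins and periostin are matricellular proteins, which modulate adhesion and signalling more than they carry load. Dermal fibroblasts are a main source of these proteins in skin.

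The 6 libraries held 11010629 to 17836510 fragments, with fewer in each piPSC library than in any PEF library. Values are FPKM, fragments scaled to the length of the gene and to the total of the library, so levels can be compared between genes. The 12 fibroblast markers summed to between 6077 and 8597 FPKM in PEFs and between 325 and 543 FPKM in piPSCs, and 11 of 12 were called lower. None of the 12 was at 0 in a piPSC library. COL3A1 still had 94.2, 109 and 125 FPKM and PRRX1 90.6, 64.7 and 49.5 FPKM in piPSC5, piPSC7 and piPSC8. Of the 9 pluripotency and epithelial markers, 7 were matched in the table, without POU5F1 and LIN28A, and these summed to at most 9.16 FPKM in a piPSC library and at most 0.202 FPKM in a PEF library. In piPSC5, piPSC7 and piPSC8, LIN28B had 2.51, 0.281 and 8.9 FPKM and SOX2 3.01, 2.49 and 0.129 FPKM. In PEFs, LIN28B had at most 0.0367 FPKM and SOX2 at most 0.0208 FPKM, so the groups did not overlap for either gene. The study reports both as upregulated, with relative mRNA levels among its evidence, so its measure and test differ from those used here. Neither was called here on log2(FPKM + 1) (limma adjusted p = 0.0667 and 0.0626), and each was called in 4 alternatives. NANOG was listed at 0 in piPSC5 and piPSC8 and at 0.0919 FPKM in piPSC7. SALL4, ESRRB, CDH1 and EPCAM had at most 0.113 FPKM in any piPSC library. EPCAM was lower in piPSC5, piPSC7 and piPSC8 (0, 0 and 0.0144 FPKM) than in PEF5, PEF7 and PEF8 (0.0356, 0.057 and 0.0734 FPKM). Of the 7 matched markers, only LIN28B and SOX2 were thus above 0.113 FPKM in a piPSC library, and most did not show the pluripotent label. The study describes its lines as male. The Y-linked gene DDX3Y had 3439 fragments in PEF8 and 4207 in piPSC8, and 0 in the 4 libraries of lines 5 and 7, so line 8 stands apart. The values of lines 5 and 7 are at odds with that description, and the reason was not tested. Without both libraries of line 8, 8 of the 10 genes were still called.

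A count of 0 fragments allows up to 3, a limit that covers counting error only. In these bulk cultures, fewer cells of a type and less RNA per cell cannot be told apart. Nor can fragments of the mouse feeders be told apart from pig fragments in a table of values per gene, and their part in the piPSC levels was not tested.

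The promoter windows of 2 of the genes are shown because the study examined binding motifs of the Fos/Jun (AP-1), Runx and Tead families, and these windows hold matches. Each window is the 250 bases before the gene start listed in the table, on build Sscrofa11.1, read 5′ to 3′ on the strand of the gene. The listed and RefSeq starts lie within 17 bases of each other for THBS1 and within 60 bases for POSTN. The THBS1 window is chr1:131746116-131746365, minus strand, and the POSTN window is chr11:13259034-13259283, minus strand. Capitals mark matches on either strand to the AP-1 motif TGANTCA, the RUNX motif TGTGGT, the TEAD motif GGAATG, the GC box GGGCGG bound by SP1, or the TATA box TATAAA.
THBS1: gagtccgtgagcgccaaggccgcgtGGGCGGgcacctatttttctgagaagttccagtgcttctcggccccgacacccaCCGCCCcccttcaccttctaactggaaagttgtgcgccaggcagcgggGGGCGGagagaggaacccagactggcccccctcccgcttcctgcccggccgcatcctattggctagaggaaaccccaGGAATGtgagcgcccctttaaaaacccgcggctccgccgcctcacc
POSTN: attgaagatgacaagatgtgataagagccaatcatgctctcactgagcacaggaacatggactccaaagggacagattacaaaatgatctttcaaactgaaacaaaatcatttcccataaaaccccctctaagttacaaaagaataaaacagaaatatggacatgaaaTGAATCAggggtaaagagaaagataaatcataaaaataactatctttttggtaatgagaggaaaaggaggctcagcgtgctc
In the THBS1 window, a TEAD match starts 46 bases before the gene start, and 3 GC boxes lie further upstream. In the POSTN window, the only match was an AP-1 match, TGAATCA, which starts 82 bases before the gene. The window of TNC also held an AP-1 match, TGACTCA, starting at 88 bases before its listed start. AP-1 matches were thus found in 2 of the 10 windows, against 4.88% of the 16995 windows that were read. TEAD matches were found in 1 of 10 against 10.1%, RUNX matches in 0 of 10 against 11.4%, GC boxes in 6 of 10 against 46.1% and TATA boxes in 2 of 10 against 9.12%. The listed and RefSeq starts of FBN1, FN1, TNC and THBS2 lie at least 551 bases apart, so their windows may not be promoters. The RefSeq starts of ELN and FBN2 lie 230 and 160 bases upstream of the listed starts. Most of each of these 250-base windows thus lies inside the RefSeq gene, and so do the GC boxes counted there. A match is a description of letters and not a site of binding.

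Of the 10 genes, 7 were downregulated after reprogramming (FBN1, ELN, FN1, TNC, SPARC, THBS1 and THBS2), 1 was upregulated (FBN2), and POSTN and FBLN1 did not pass the test. Calls needed a limma adjusted p below 0.05 and a change of 2-fold or more on log2(FPKM + 1), with Benjamini-Hochberg adjustment over 12428 genes. Over all tested genes, 36.8% were called, 16.7% as lower and 20.2% as higher. The median log2 fold change was −3.52 for the 10 genes and 0.20 for all tested genes. The PEF and piPSC libraries did not overlap for 7 of the 10 genes, a count near the 64.1% of all tested genes. All 10 genes passed the filter on low values. Their joint share of all fragments was 1.71%, 1.6% and 1.2% in PEF5, PEF7 and PEF8 and 0.105%, 0.0753% and 0.13% in piPSC5, piPSC7 and piPSC8. In FPKM, SPARC was the highest of the 10 in every library. With line 5 or line 7 left out, FBN1, FBN2, ELN and FN1 lost their calls, and POSTN gained one without line 5, which left 5 and 4 genes called. TNC, SPARC, THBS1 and THBS2 were the 4 genes called under all alternatives.

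**Figure D1:**
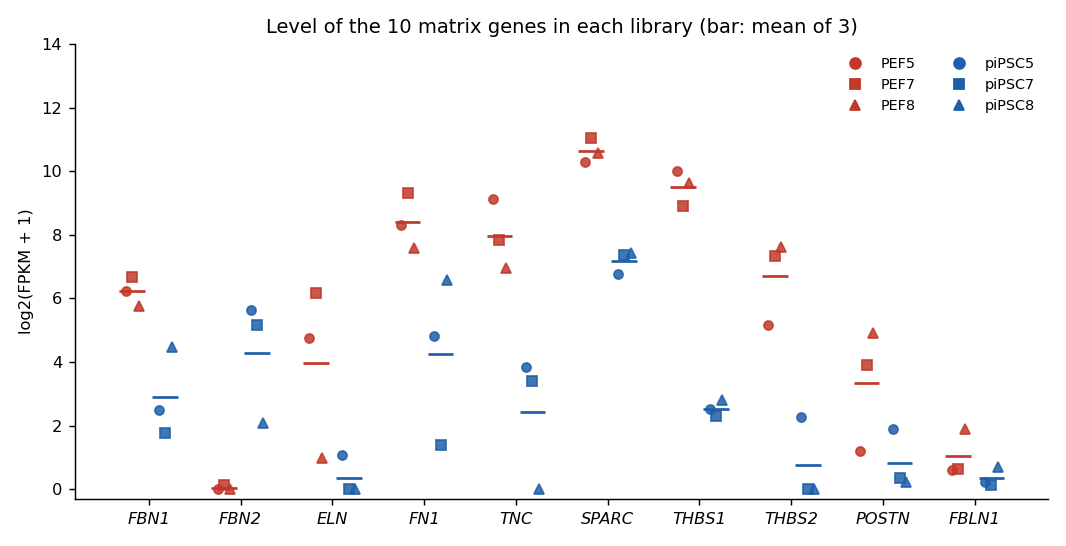
Levels of the 10 genes (x axis) as log2(FPKM + 1) (y axis), with 1 point for each of the 3 PEF libraries (red) and 3 piPSC libraries (blue), shaped by line, and a bar at each group's mean. THBS1 shows the widest gap between the groups among the genes that fell, FBN2 is at the bottom in PEFs and high in piPSCs, and the ELN, POSTN and FBLN1 points overlap between the groups.

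Fibrillins form the microfibrils on which elastin is laid down. FBN1 (ENSSSCG00000004658, chr1:123101260-123359568, plus strand, 65 exons in RefSeq) encodes fibrillin-1, the main fibrillin of postnatal tissue, whose mutation causes Marfan syndrome. Its level was 75.1, 102 and 53.9 FPKM in PEF5, PEF7 and PEF8, and 4.61, 2.43 and 21.4 FPKM in piPSC5, piPSC7 and piPSC8. The groups did not overlap, and piPSC8 was the highest of the piPSC libraries. The mean fell from 77.1 ± 24.2 to 9.46 ± 10.4 FPKM (SD, n = 3), and limma gave a log2 change of −3.32 (SE 0.67) at an adjusted p of 0.00733. FBN1 is also one of the genes that the study itself calls PEF-specific. Its adjusted p was 0.0836 without line 5 and 0.0537 without line 7 (limma), which ends the call.

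FBN2 (ENSSSCG00000014256, chr2:131152210-131370081, minus strand, 67 exons) encodes fibrillin-2, the fibrillin best known from developing tissues. It had 1, 13 and 1 fragments in PEF5, PEF7 and PEF8, or 0.00667, 0.0925 and 0.00785 FPKM. In piPSC5, piPSC7 and piPSC8 it had 6109, 3497 and 300 fragments, or 48.3, 35.0 and 3.24 FPKM. Every piPSC library was above every PEF library, and piPSC8 was far below the other piPSCs. The mean rose from 0.0357 ± 0.0492 to 28.8 ± 23.1 FPKM (SD, n = 3), 808-fold, where the PEF mean rests on 15 fragments over 3 libraries. The log2 fold change of FPKM + 1, which understates changes of low genes, was 4.24 (SE 0.88, limma adjusted p = 0.00806). The adjusted p was 0.0763 without line 5 and 0.0703 without line 7 (limma), so this call too was lost. The log2 fold change was 3.56 and 3.84 in these fits.

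FBN2 was below FBN1 in all PEFs and above it in piPSC5 and piPSC7. The log2 ratio of FBN2 to FBN1, each as FPKM + 1, was −6.24, −6.56 and −5.77 in PEF5, PEF7 and PEF8, and 3.14, 3.39 and −2.40 in piPSC5, piPSC7 and piPSC8. In FPKM, FBN2 was 10.5 times FBN1 in piPSC5 and 14.4 times in piPSC7, but 0.152 times in piPSC8. FBN1 was thus the higher of the pair in piPSC8, as in PEFs. The mean ratio was −6.19 ± 0.40 for PEFs and 1.38 ± 3.27 for piPSCs (SD, n = 3), which differ by 7.57 on the log2 scale. The exact two-sided permutation p was 0.1, the smallest that 3 lines against 3 allow.

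**Figure D2:**
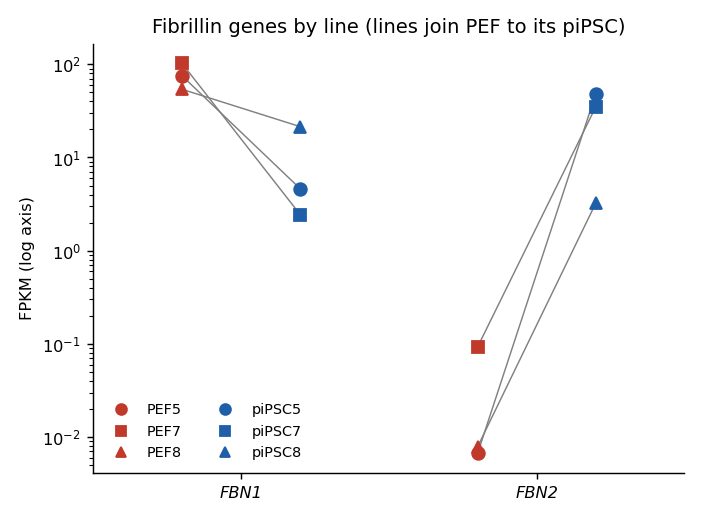
FPKM (y axis, log scale) of FBN1 and FBN2 (x axis) in the PEF (red) and piPSC (blue) library of each line, joined by a grey line. FBN1 goes down and FBN2 goes up in all 3 lines, and piPSC8 ends highest for FBN1, at 21.4 FPKM, and lowest for FBN2, at 3.24 FPKM.

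ELN (ENSSSCG00000025858, chr3:11214424-11244894, plus strand, 36 exons) encodes tropoelastin, the soluble unit of the elastic core. It had 25.8, 70.6 and 0.972 FPKM in PEF5, PEF7 and PEF8, and 1.12, 0 and 0 FPKM in piPSC5, piPSC7 and piPSC8. The groups overlapped, since PEF8, with 34 fragments, was below piPSC5, with 39. In line 7, where 2724 fragments stood against 0, ELN was at least 646-fold lower in the piPSCs, with 3 fragments as the floor of a library, and in line 8 at least 8.24-fold lower. On average, ELN fell from 32.5 ± 35.3 to 0.374 ± 0.648 FPKM (SD, n = 3), and limma gave a log2 change of −3.60 (SE 1.25) at an adjusted p of 0.0481. This call was lost in 9 of 16 alternatives, where the limma adjusted p reached 0.232. The length behind the ELN values was 2310 bases, against 3512 bases for the longest RefSeq transcript. The log2 ratio of ELN to FBN1 was −2.28 ± 2.24 in PEFs and −2.55 ± 1.68 in piPSCs (SD, n = 3, exact two-sided permutation p = 0.9).

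FN1 (ENSSSCG00000016174, chr15:117658843-117730867, minus strand, 50 exons) encodes fibronectin. It had 318, 643 and 190 FPKM in PEF5, PEF7 and PEF8, and 27.0, 1.63 and 94.9 FPKM in piPSC5, piPSC7 and piPSC8. The groups did not overlap, and piPSC7 was far below the other piPSCs. piPSC8 kept 50% of the PEF8 level, piPSC5 kept 8.48% of that of PEF5, and piPSC7 kept 0.253% of that of PEF7. Between the groups, the mean dropped from 384 ± 234 to 41.2 ± 48.2 FPKM (SD, n = 3), and limma gave a log2 change of −4.15 (SE 1.25) at an adjusted p of 0.031. With the cell line as a replicate block the limma adjusted p was 0.0614, and 8 of 16 alternatives ended the call. The summed fibroblast markers were lowest in piPSC8 at 325 FPKM, where FN1 and FBN1 were highest among the piPSCs. Single markers were split. VIM, THY1, PDGFRA, PDGFRB, COL1A1, COL1A2 and PRRX1 were lowest in piPSC8, COL3A1, FAP and TWIST1 were highest there, and LUM and DCN lay between. The part of these markers in the FN1 and FBN1 levels was not tested.

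SPARC (ENSSSCG00000017082, chr16:71368164-71380972, plus strand, 10 exons) encodes osteonectin, a collagen-binding glycoprotein. Its level was 1240, 2121 and 1518 FPKM in PEF5, PEF7 and PEF8, which ranked it 26, 15 and 20 among all genes. In piPSC5, piPSC7 and piPSC8 it was 107, 165 and 171 FPKM, or ranks 420, 293 and 256. The libraries of each group lay close together and the groups did not overlap. The mean fell from 1626 ± 450 to 148 ± 35.5 FPKM (SD, n = 3), 11-fold, and limma gave a log2 change of −3.45 (SE 0.28) at an adjusted p of 0.000357. A RefSeq long non-coding RNA lies on the opposite strand over SPARC, and the strand setting of the counting is not given in the sources used here, so reads of the pair cannot be told apart.

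Thrombospondins are secreted glycoproteins that bind CD47 and integrins, and thrombospondin-1 also activates latent TGF-beta. THBS1 (ENSSSCG00000004789, chr1:131728784-131746115, minus strand, 22 exons), whose window is printed above, had 1033, 476 and 788 FPKM in PEF5, PEF7 and PEF8. It had 4.70, 3.93 and 5.94 FPKM in piPSC5, piPSC7 and piPSC8. These were ranks 33, 97 and 46 in PEFs and 7588, 7970 and 6498 in piPSCs, and the 3 piPSC values were close to each other. Its mean dropped from 766 ± 279 to 4.86 ± 1.01 FPKM (SD, n = 3), 158-fold. Its log2 change, −6.98 (SE 0.30) with a limma adjusted p of 0.000101, was the largest fall among the 10 genes in this fit.

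THBS2 (ENSSSCG00000004012, chr1:855024-883694, plus strand, 21 exons) encodes thrombospondin-2, which acts on collagen fibril assembly. It had 35.1, 159 and 197 FPKM in PEF5, PEF7 and PEF8, and 3.85, 0 and 0 FPKM in piPSC5, piPSC7 and piPSC8. The remaining signal came from piPSC5, with 406 fragments. Against the floor of 3 fragments, THBS2 was at least 4403-fold lower in line 7 and at least 5068-fold lower in line 8. The mean fell from 130 ± 84.6 to 1.28 ± 2.22 FPKM (SD, n = 3), and limma gave a log2 change of −5.95 (SE 0.85) at an adjusted p of 0.00207. The log2 ratio of THBS2 to THBS1 was −2.80 ± 1.77 in PEFs and −1.78 ± 1.36 in piPSCs (SD, n = 3), and its difference of 1.03 had an exact two-sided permutation p of 0.6. With a pseudocount of 0.1 in place of 1 that difference turned to −1.02.

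TNC (ENSSSCG00000005494, chr1:255532022-255630963, minus strand, 30 exons) encodes tenascin-C, an anti-adhesive glycoprotein of embryonic and wounded tissue. It had 557, 226 and 123 FPKM in PEF5, PEF7 and PEF8, and 13.5, 9.55 and 0 FPKM in piPSC5, piPSC7 and piPSC8. No piPSC library reached a PEF library, and in line 8 TNC was at least 4398-fold lower against the floor. Mean TNC dropped from 302 ± 227 to 7.68 ± 6.93 FPKM (SD, n = 3), and limma gave a log2 change of −5.55 (SE 1.07) at an adjusted p of 0.00614.

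POSTN (ENSSSCG00000009361, chr11:13224959-13259033, minus strand, 22 exons) encodes periostin, which links fibronectin and tenascin to collagen. It had 1.30, 14.1 and 29.1 FPKM in PEF5, PEF7 and PEF8, and 2.74, 0.278 and 0.162 FPKM in piPSC5, piPSC7 and piPSC8. The groups overlapped, since piPSC5 was above PEF5 while the other 2 lines were higher in PEFs. The means were 14.8 ± 13.9 and 1.06 ± 1.45 FPKM (SD, n = 3), and the log2 fold change of −2.52 (SE 0.97) did not pass the test (limma adjusted p = 0.0678). Without line 5 the limma adjusted p was 0.012, and without PEF5 alone 0.00868. As at SPARC, a RefSeq long non-coding RNA lies over POSTN on the opposite strand.

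FBLN1 (ENSSSCG00000000010, chr5:3838211-3927217, minus strand, 17 exons) encodes fibulin-1, which binds fibronectin and elastic fibres. It was low throughout, with 0.538, 0.554 and 2.73 FPKM in PEF5, PEF7 and PEF8 and 0.184, 0.0957 and 0.620 FPKM in piPSC5, piPSC7 and piPSC8. piPSC8 was above PEF5 and PEF7, so the groups overlapped. The length behind the FBLN1 values was 6153 bases, against 2896 bases for the longest RefSeq transcript, and a longer length lowers FPKM. The means were 1.27 ± 1.26 and 0.300 ± 0.281 FPKM (SD, n = 3), and limma gave a log2 change of −0.69 (SE 0.41) at an adjusted p of 0.193, and none of 13 alternatives called it.

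**Figure D3:**
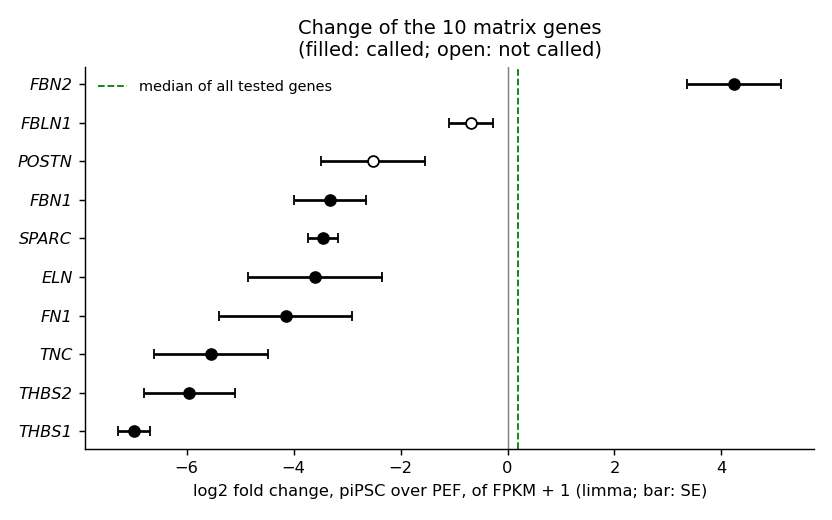
Log2 fold change of FPKM + 1, piPSCs over PEFs (x axis), for the 10 genes, with bars of 1 SE from limma, filled points for called genes and open points for the others. The green dashed line is the median of all tested genes, 0.20. THBS1 lies farthest to the left at −6.98 and FBN2 alone lies to the right, at 4.24.

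Each piPSC line was then set against its own PEF line, 1 library against 1, with no test. In line 5, 7 of the 10 genes were at least 2-fold lower in FPKM + 1, as were 18.6% of all tested genes. In line 7, 8 of 10 were at least 2-fold lower, against 17.2%, and in line 8, 7 of 10, against 23.8%. ELN and FN1 just missed the limit in line 8, at −0.98 and −0.99. With a pseudocount of 0.1 the counts were 8, 9 and 8 in lines 5, 7 and 8. After rescaling to the median ratio they were 7, 8 and 9. FBN2 was at least 2-fold higher in each line. SPARC and THBS1 were lower by similar amounts in all lines, with log2 ratios of −3.53, −3.67 and −3.15 for SPARC and −7.50, −6.59 and −6.83 for THBS1 in lines 5, 7 and 8. FN1 varied most between lines among the genes called lower, with −3.51, −7.94 and −0.99. For FBN1, FBN2, ELN, FN1 and SPARC the ratio was closest to 0 in line 8. For TNC and THBS2 it was lowest there, at −6.95 and −7.63, and for THBS1 it was closest to 0 in line 7.

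**Figure D4:**
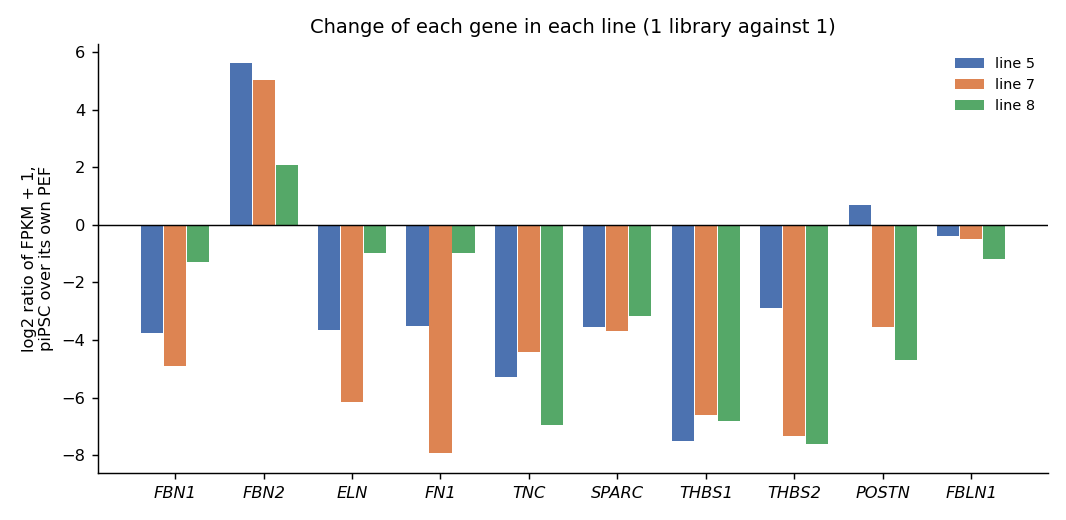
Log2 ratio of FPKM + 1, piPSC over the PEF of the same line (y axis), for each of the 10 genes, with 1 bar for each of lines 5, 7 and 8. The bars of SPARC and THBS1 have similar heights in all lines, those of FN1 run from −0.99 to −7.94, and POSTN points up in line 5 at 0.70 and down in the others.

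Partners of the 10 genes in elastic fibre assembly were downregulated in most cases. This list and those that follow were chosen with earlier results of these data known. Their counts stand against 16.7% called lower and 20.2% called higher over all tested genes. Of 21 listed microfibril proteins, fibulins, cross-linking enzymes and latent TGF-beta binding proteins, 16 were tested, 11 were downregulated and 0 upregulated by limma, with a median log2 fold change of −2.83. The largest falls were those of LTBP2 (−6.05, SE 0.46, limma adjusted p = 0.000321), LOXL1 (−5.32, SE 0.57, adjusted p = 0.000792) and LTBP1 (−4.98, SE 0.43, adjusted p = 0.000426). LTBP1 and LTBP2 encode latent TGF-beta binding proteins, which attach to fibrillin microfibrils, and LOXL1 encodes an oxidase that cross-links elastin. LTBP2 went from 150, 118 and 63.8 FPKM in PEF5, PEF7 and PEF8 to 1.87, 0.361 and 0.0354 FPKM in piPSC5, piPSC7 and piPSC8. The 5 tested partners that were not called, named after their values were seen, were LOX, FBLN2, FBLN7, MFAP5 and EFEMP1. LOX, which encodes the founding lysyl oxidase, had 57.2, 79.1 and 43.0 FPKM in PEFs and 21.8, 3.14 and 47.5 FPKM in piPSCs (log2 fold change −1.83, SE 0.85, limma adjusted p = 0.111). Its groups overlapped, and piPSC8 was above PEF8.

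Of 34 other matrix glycoproteins, 26 were tested, 18 were downregulated and 0 upregulated by limma, with a median log2 fold change of −2.16. AEBP1, a collagen-binding protein of connective tissue, had 120, 162 and 113 FPKM in PEFs and 2.49, 0.131 and 1.63 FPKM in piPSCs (log2 fold change −5.91, SE 0.42, limma adjusted p = 0.000266). ECM1, a dermal glycoprotein, changed by −5.46 (SE 0.67, adjusted p = 0.00118) and SPP1, which encodes osteopontin, by −4.40 (SE 0.86, adjusted p = 0.00633, limma). Without line 5 the limma adjusted p of SPP1 was 0.0607. The count of genes lower in this list ran from 7 to 19 over the alternatives.

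Among the basement membrane glycoproteins, nidogens were downregulated and laminin chains gave mixed calls. Of 15 listed, 10 were tested, 7 were downregulated and 0 upregulated by limma, with a median log2 fold change of −1.95. The nidogens, which link laminin to collagen IV, and laminin beta-1 led the falls, with −5.10 for NID2 (SE 0.49, limma adjusted p = 0.000549), −4.97 for NID1 (SE 1.10, adjusted p = 0.0102) and −4.20 for LAMB1 (SE 0.54, adjusted p = 0.00144). The 3 tested genes that were not called, named after their values were seen, were LAMC1, LAMB2 and LAMA3. LAMC1, the gamma chain common to most laminins, had 54.9, 62.1 and 64.6 FPKM in PEFs and 53.7, 38.9 and 48.4 FPKM in piPSCs (log2 fold change −0.37, SE 0.17, limma adjusted p = 0.107). Without line 7 the adjusted p of NID1 was 0.0863 (limma).

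Among 16 listed receptors for these proteins, 12 were tested, 8 were downregulated and 1 upregulated by limma, with a median log2 fold change of −2.20. ITGA5, the alpha chain of the classical fibronectin receptor, had 73.3, 49.2 and 74.6 FPKM in PEFs and 1.55, 1.17 and 0.393 FPKM in piPSCs (log2 fold change −5.05, SE 0.29, limma adjusted p = 0.000173). SDC4, a proteoglycan that binds fibronectin beside that integrin, changed by −4.47 (SE 0.20, adjusted p = 0.000104, limma). LRP1, an endocytic receptor that takes up thrombospondins, changed by −4.24 (SE 0.52, adjusted p = 0.00118, limma). ITGA4, the alpha chain of another fibronectin-binding integrin, was the receptor that rose, from 0.116, 0.0354 and 0.0489 FPKM in PEFs to 12.0, 7.29 and 98.3 FPKM in piPSCs (log2 fold change 4.37, SE 0.87, limma adjusted p = 0.00691). Every piPSC library was above every PEF library for ITGA4, and the adjusted p was 0.0543 without line 5 (limma). ITGB1, the beta chain shared by both integrins, had 314, 229 and 195 FPKM in PEFs and 153, 200 and 137 FPKM in piPSCs and was not called (log2 fold change −0.58, SE 0.23, limma adjusted p = 0.0777).

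Of the 3 TGF-beta ligands, which the fibrillin and LTBP network stores in latent form, TGFB2 was downregulated. It had 3.58, 14.4 and 21.0 FPKM in PEFs and 0.179, 0.328 and 0.245 FPKM in piPSCs (log2 fold change −3.21, SE 0.56, limma adjusted p = 0.00422). The groups did not overlap. TGFB1 had 17.1, 21.2 and 12.1 FPKM in PEFs and 4.83, 15.1 and 5.58 FPKM in piPSCs, and limma gave a log2 change of −1.03 (SE 0.42) at an adjusted p of 0.0793, and it was called in 5 of 16 alternatives, the replicate block among them. TGFB3 had 5.73, 5.4 and 0.702 FPKM in PEFs and 3.47, 3.13 and 0.0557 FPKM in piPSCs and was not called (log2 fold change −0.64, SE 0.75, limma adjusted p = 0.498).

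**Figure D5:**
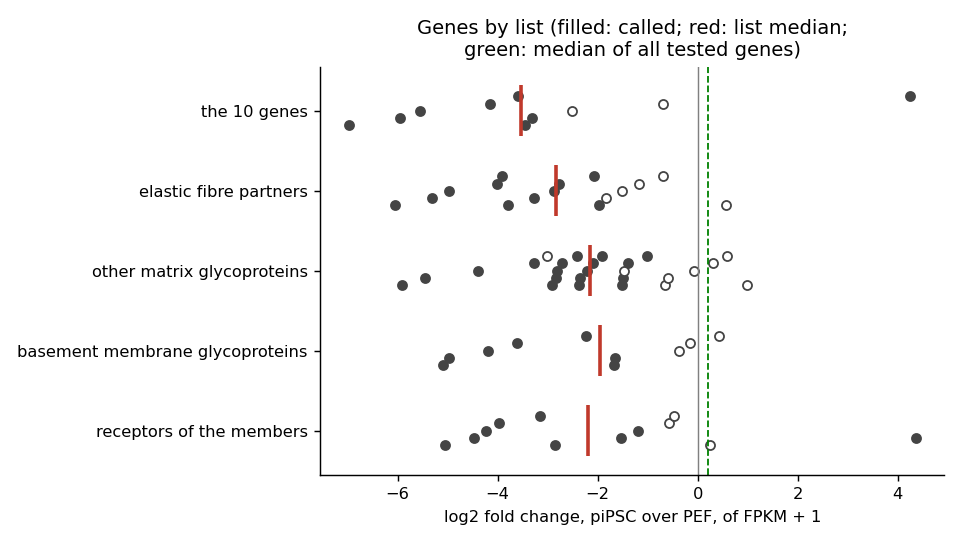
Log2 fold change of FPKM + 1, piPSCs over PEFs (x axis), for every tested gene of the 10 and of 4 lists (rows), with filled points for called genes, open points for the others, a red bar at each list's median and a dashed line at the median of all tested genes, 0.20. Filled points to the right of 0 are FBN2 and ITGA4 only.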

How the data were processed

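The authors deposited 1 table of FPKM values per gene, for 3 PEF and 3 piPSC libraries of poly-A RNA read as pairs of 150 bases. The submitters' processing notes name HISAT2 2.1.0, HTSeq 0.6.0, Bowtie2 2.2.3 and Sscrofa11.1, without roles. The strand setting and the treatment of reads shared between genes are not given in the sources used here. The table lists 3375 genes by identifier only, of which 902 were named from a gene table. Of 14028 symbols shared with RefSeq, 99.6% lie at overlapping positions, and coordinates are on Sscrofa11.1.

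Whole fragments were recovered from the FPKM steps for 18007 genes (100%, tolerance 0.001 fragments). limma 3.58.1 in R 4.3.3 was fitted to log2(FPKM + 1) of the 12428 genes whose mean reached 0.5 FPKM, with a trend, two-sided, with Benjamini-Hochberg adjustment, and without pairing the lines. It was tested on simulated data. Ratios used an exact permutation test over the libraries (scipy 1.17.1), and summaries were made in Python 3.11.15 with numpy 2.4.6 and pandas 2.3.3.

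The lines pair the libraries, since each piPSC line came from one PEF line. After removing group means, libraries correlated at 0.0921, 0.0946 and 0.08 within lines and at −0.121 to 0.0553 between lines. The block fit is an alternative, with a pseudocount of 0.1, no filter or a minimum mean of 1 FPKM, scaling of libraries to the median ratio or to equal sums, limma voom on the recovered fragments and each library left out. Leaving out both libraries of 1 line was added after the data were seen.

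The 10 genes and the lists of partners, other glycoproteins, basement membrane genes, receptors and markers were chosen with earlier results of these data known. The text names all 10 genes, the 3 called genes of each list with the largest fall and the largest rise, the TGF-beta ligands, markers that check the groups, and the 5 genes with the most similar profile. Protein sequences, ATAC-seq and methylation were not used here.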

Additional observations from a re-analysis of the deposited data

Results flagged for a closer look

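POSTN, the periostin gene, went in opposite directions between lines. The log2 ratio of FPKM + 1, piPSC over the PEF of the same line, was 0.70 in line 5, −3.56 in line 7 and −4.69 in line 8. Line 5 had the lowest PEF level, 1.30 FPKM from 91 fragments, and the highest piPSC level, 2.74 FPKM from 162 fragments. Each ratio compares 1 library with 1, and the difference between lines was not tested. The summed fibroblast markers were highest in piPSC5 among the piPSCs, at 543 FPKM against 457 in piPSC7 and 325 in piPSC8. Singly, VIM was highest in piPSC7, COL3A1, FAP and TWIST1 in piPSC8, and the other markers in piPSC5. Their part in the POSTN level was not tested.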

How the results depend on the processing

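Leaving out 1 library, or both libraries of 1 line, gave 4 to 8 called genes of the 10, with 4 to 7 lower and 0 to 1 higher, and 1307 to 2075 genes called lower over the whole table. The low ends of the 10-gene counts come from leaving out line 7 (4 called, 4 lower, 0 higher), and without line 5 there were 5 called, 0 of them higher, and 1307 lower over the table. The same steps moved the log2 change of TGFB3 between −1.29 and 0.04, with the sign turned without piPSC8. For the ratios only single libraries were left out, which moved the ELN to FBN1 log2 difference between −1.54 and 0.69, turning its sign without PEF5 (0.11), PEF7 (0.60) or piPSC8 (0.69). The THBS2 to THBS1 difference was −1.02 with a pseudocount of 0.1, and it was 0.01 without PEF5, 0.26 without piPSC5 and 1.64 without PEF7. The cause of these changes was not tested.

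With the lines as a replicate block (paired fit), 7 of the 10 genes were called by limma. FN1 lost its call (adjusted p = 0.0614) and TGFB1 gained one (adjusted p = 0.0364), and no other named call changed. In the paired ratios the differences stayed at 7.57, 1.03 and −0.28, with exact p of 0.25, 1 and 1. An exact p of 0.25 is the smallest that this paired test allows. ELN also lost its call with voom on fragments (adjusted p = 0.179) and with no filter on low values (adjusted p = 0.0856), as did FN1 with no filter (adjusted p = 0.0576).

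On the deposited scale the median log2 change of all tested genes was 0.20, with 2505 genes called higher and 2070 lower. It was −0.01 after rescaling to the median ratio (1869 higher, 2517 lower) and −0.06 after rescaling to equal sums (1986 higher, 2815 lower). The share of calls that were lower was 45.2%, 57.4% and 58.6%. Depth limits the genes near 0, namely FBN2 in PEFs, ELN in piPSCs, THBS2 in piPSC7 and piPSC8, and TNC in piPSC8.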

Other observations

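Of the marker lists for other cell types, 3 of 4 tested smooth muscle markers (ACTA2, CNN1 and SMTN) were called lower in piPSCs by limma. The list summed to 127, 71.7 and 220 FPKM in PEF5, PEF7 and PEF8 and to 3.19, 23.9 and 4.13 FPKM in piPSC5, piPSC7 and piPSC8. DES was not called, with 0.151, 0.0404 and 0.416 FPKM in PEFs and 0.165, 14.2 and 2.51 FPKM in piPSCs. MYH11 and TAGLN were not tested and had at most 0.716 FPKM in any library. Both tested cartilage markers, SOX9 and CHAD, were called lower. That list summed to 6.12, 7.96 and 1.61 FPKM in PEFs and at most 0.653 FPKM in piPSCs. The other listed cartilage markers, among them COL2A1 and ACAN, were not tested and had at most 0.0795 FPKM in any PEF library. PEF8 was the lowest PEF library for cartilage markers and for ELN, and the highest for smooth muscle markers, and the part of other cells in the ELN level was not tested. Endothelial markers summed to at most 2.59 FPKM, keratinocyte markers to at most 9.12 FPKM and blood cell markers to at most 22.8 FPKM in any library. Of these, 0 of 1, 0 of 2 and 1 of 2 tested markers were called lower.

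The 5 genes outside the lists with the profile most like the mean of the 10 genes over the 6 libraries were CTSH, EVA1B, PLBD2, ENG and ADAMTS2. Their root mean square distance on the log2 scale, after centring, was 0.21, 0.21, 0.23, 0.23 and 0.26. CTSH, which encodes the lysosomal protease cathepsin H, had 270, 373 and 263 FPKM in PEF5, PEF7 and PEF8 and 38.0, 30.2 and 32.6 FPKM in piPSC5, piPSC7 and piPSC8. ADAMTS2, which encodes a procollagen-processing protease, had 13.1, 15.3 and 13.7 FPKM in PEFs and 0.875, 0.0123 and 0 FPKM in piPSCs.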
